A study of Mus musculus with 4 samples.

Results

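The Slc25 genes encode the mitochondrial carrier family, here the 47 genes of 21884 in the files whose symbol is Slc25a followed by a number. All 47 had at least 1 unique molecule counted. RNA was counted in single nuclei of 4 hearts, each a library of its own, from wild-type C57BL/6J males that were injured at day 1 after birth and whose hearts were taken 21 days later. The fathers of 2 hearts had been injured (injured-father libraries 1 and 2) and those of the other 2 had not (uninjured-father libraries 1 and 2), so every heart in the comparison is itself an injured heart. No source used here names the fathers or the litters, so p-values measure the spread between these hearts, which may share a father.

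Most carriers sit in the inner mitochondrial membrane, which is otherwise closed to charged metabolites, and move 1 class of solute each between the cytosol and the matrix. Among them are the ADP/ATP and phosphate carriers that serve ATP synthesis, the aspartate/glutamate carriers of the malate-aspartate shuttle, the carnitine/acylcarnitine carrier that brings fatty acids in for oxidation, and carriers of coenzyme A, NAD+, iron and glutathione. Heart muscle and brown fat are tissues rich in mitochondria. The carriers are encoded in the nucleus, made in the cytosol and inserted into the membrane by the TIM22 pathway.

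After filtering and removal of doublets, 33995 nuclei remained (6791 to 9537 per library, median 1860 to 2665 UMIs per nucleus), in 21 clusters of which 13 classes could be named from marker genes. Of these, 9455 nuclei were cardiomyocyte-like (1910 to 2886 per library) and 310 were adipocyte-like (174 and 113 in the injured-father libraries, 16 and 7 in the uninjured-father libraries). The 24230 others, called other nuclei below, include 673 left unnamed. UMIs are unique molecules counted, and 189706 of them fell on members. The members' summed level was 2341 to 2493 UMIs per 1000000 UMIs (CPM) in cardiomyocyte-like nuclei, 2430 to 2847 in adipocyte-like nuclei and 1261 to 1409 in other nuclei. Markers of cardiomyocytes were also counted in other nuclei. The 12 cardiomyocyte markers stood there at a median of 10.7% of their level in cardiomyocyte-like nuclei, from 5.37% for Ttn to 27.8% for Actc1. How these UMIs came to be there was not tested. Libraries shared only 22 to 31 barcodes in any pair.

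Members were compared between classes of nuclei first. Classes come from clustering, so these ratios are descriptions with no test, and members were kept out of the genes used to cluster. Levels below are CPM scaled by TMM over all class and library sums, and a ratio is taken within each library. This scaling matters: over all genes the median log2 ratio of cardiomyocyte-like to other nuclei was -0.06 with it and -0.71 with plain CPM. A member counted as higher or lower in cardiomyocyte-like nuclei if its ratio passed 2-fold in 4 of 4 libraries, among the 43 members with at least 50 UMIs on either side (Slc25a2, Slc25a41, Slc25a48 and Slc25a54 had fewer). By this rule 16 members were higher (37.2% of 43, beside 15.6% of all genes) and 7 were lower (16.3%, beside 24.1% of all genes). With plain CPM 10 were higher (9.03% of all genes) and 9 were lower (35% of all genes). The median ratio of the members was 1.52 (0.966 with plain CPM), beside 0.960 (0.611) over all genes.

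**Figure D1:**
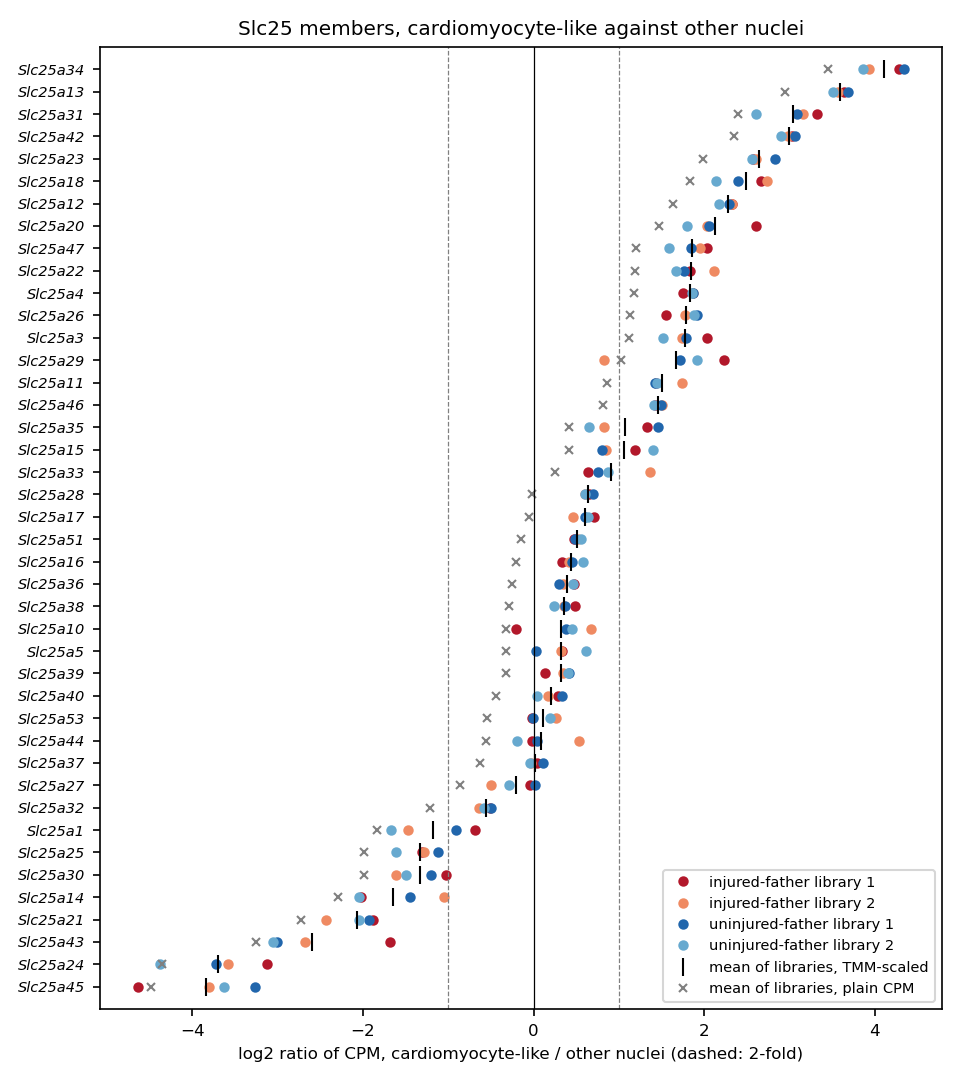
Log2 ratio of CPM in cardiomyocyte-like to other nuclei (horizontal axis) for the 42 members drawn (vertical axis), with 1 coloured point per library, a black bar at the mean of the 4 libraries and a grey cross at the mean with plain CPM. Slc25a34 and Slc25a13 are at the top, Slc25a24 and Slc25a45 at the bottom, and each grey cross lies to the left of its black bar.

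Slc25a34, Slc25a13, Slc25a42 and Slc25a20 hold the leading ratios of the 2 class comparisons, and their promoters are shown here for that reason. Each line gives 200 bases, from 250 to 51 bases before the transcript start, 5′ to 3′ on the gene's strand, from the RefSeq promoter table for GRCm38.p6. Capitals mark a match to a motif. The windows are chr4:141623885-141624084 (minus strand), chr6:6217224-6217423 (minus), chr8:70212332-70212531 (minus) and chr9:108661886-108662085 (plus) in the order listed.
Slc25a34: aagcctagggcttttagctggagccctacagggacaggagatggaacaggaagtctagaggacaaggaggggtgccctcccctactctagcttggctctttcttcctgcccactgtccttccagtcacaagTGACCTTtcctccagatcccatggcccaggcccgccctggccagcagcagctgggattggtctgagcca
Slc25a13: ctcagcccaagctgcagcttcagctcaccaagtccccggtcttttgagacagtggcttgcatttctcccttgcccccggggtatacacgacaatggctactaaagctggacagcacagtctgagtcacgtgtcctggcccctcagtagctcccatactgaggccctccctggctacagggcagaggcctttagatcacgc
Slc25a42: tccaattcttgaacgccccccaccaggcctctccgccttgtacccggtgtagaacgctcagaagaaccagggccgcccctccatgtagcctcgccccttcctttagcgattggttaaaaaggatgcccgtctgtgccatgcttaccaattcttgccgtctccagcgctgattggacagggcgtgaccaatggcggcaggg
Slc25a20: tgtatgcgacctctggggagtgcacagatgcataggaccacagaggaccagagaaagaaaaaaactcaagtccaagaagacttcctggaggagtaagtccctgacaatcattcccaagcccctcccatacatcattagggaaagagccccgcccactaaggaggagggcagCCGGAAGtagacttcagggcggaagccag
In all, 3 motifs were searched on both strands in windows of 300 bases, 250 before to 50 after the start, for the 36 members with a promoter in the table. AAGGTCA, a half-site of nuclear receptors of the ERR kind, was in 1 member, Slc25a34, as its reverse complement starting 119 bases before the start, and in 4.72% of all 32851 promoters. CCGGAAG, an ETS element, was in 7 members (Slc25a3, Slc25a4, Slc25a17, Slc25a20, Slc25a25, Slc25a38 and Slc25a54) and in 8.86% of all promoters, and in Slc25a20 it starts 79 bases before the start. An NRF1 element, searched without mismatches, was in 0 members and in 0.971% of all promoters. Counted by promoter, as for all promoters, the 36 members have 46 promoters, of which 1, 7 and 0 hold the motifs in the order given. The matches are of letters only.

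The aspartate/glutamate carriers of the malate-aspartate shuttle were higher in cardiomyocyte-like nuclei. Slc25a13, or citrin, an aspartate/glutamate carrier best known from liver, stood at 606, 588, 705 and 505 CPM in cardiomyocyte-like nuclei of injured-father libraries 1 and 2 and uninjured-father libraries 1 and 2. In other nuclei it stood at 48.8, 49.8, 54.9 and 44.5 CPM in the same order. The ratio was 12.1 (11.3 to 12.9 over the 4 libraries), and the ranges do not come near each other. Slc25a12, or aralar, the aspartate/glutamate carrier usually named as that of heart and brain, stood at 548, 618, 648 and 556 CPM against 109, 123, 132 and 123 CPM, a ratio of 4.86. Slc25a12 held 47.5%, 51.3%, 47.9% and 52.4% of the UMIs of the pair in cardiomyocyte-like nuclei, 49.8% ± 2.45 (SD, n = 4), and 71.1% ± 1.76 in other nuclei. It was 78.1% ± 1.40 in fibroblast-like and 78.7% ± 3.69 in pericyte-like nuclei. Slc25a13 in other nuclei lies within the range that cardiomyocyte markers reach there (given below), so shares outside cardiomyocyte-like nuclei describe the UMIs counted and are not read as expression of the pair. Such shares compare UMIs, not molecules per length, and Slc25a13 spans 175956 bases against 96687 for Slc25a12 (GRCm38), which bears on the counts where reads from introns were included. Slc25a11, the oxoglutarate/malate carrier of the same shuttle, was 2.85-fold higher in cardiomyocyte-like nuclei (35.6 ± 5.54 against 12.5 ± 1.89 CPM), but 1.81-fold with plain CPM, where it no longer counted as higher. The glutamate carriers, which are not part of the shuttle, were also higher, Slc25a18 by 5.601-fold (16.7 ± 5.14 against 2.94 ± 0.610 CPM) and Slc25a22 by 3.59-fold (30.04 ± 2.43 against 8.40 ± 1.07 CPM). Thus 4 of 4 aspartate and glutamate carriers counted as higher on either scale.

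The carriers that serve ATP synthesis were high in cardiomyocyte-like nuclei too. Slc25a4, the ADP/ATP carrier of heart and skeletal muscle, stood at 387, 529, 451 and 578 CPM against 115, 145, 123 and 160 CPM in other nuclei. The ratio was 3.56 (3.35 to 3.66). Its paralog Slc25a5 is the form common in dividing cells, and it did not share this: 11.6 ± 2.87 against 9.08 ± 0.761 CPM, a ratio of 1.25. Slc25a5 has near-identical processed copies in the genome, so its counts are uncertain. Slc25a4 held 97.7% ± 0.382 of the UMIs of the pair in cardiomyocyte-like nuclei, 93.7% ± 0.507 in other nuclei and 91.9% ± 0.407 in pericyte-like nuclei. The third ADP/ATP carrier, Slc25a31, is known from testis. It had 414 UMIs in cardiomyocyte-like nuclei and 84 in other nuclei, at 16.6, 10.3, 15.9 and 10.3 CPM against 1.66, 1.15, 1.87 and 1.70 CPM, a ratio of 8.24. Slc25a3, which carries phosphate and copper, stood at 430, 403, 367 and 436 CPM against 105, 120, 106 and 153 CPM, a ratio of 3.41. With plain CPM the ratio was 2.17 and fell to 1.87 in 1 library, so that it no longer counted as higher.

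The ATP-Mg/phosphate carriers, which are regulated by calcium, differed in which gene led each class. Slc25a23 stood at 144, 143, 159 and 164 CPM in cardiomyocyte-like nuclei and at 24.3, 23.6, 22.3 and 27.9 CPM in other nuclei, a ratio of 6.24. Slc25a24 went the other way, with 3.13, 2.27, 2.20 and 1.33 CPM against 27.2, 27.1, 29.1 and 27.8 CPM, a ratio of 0.0769. Slc25a25 was lower as well, at 19.2 ± 4.56 against 47.8 ± 8.51 CPM. Slc25a23 therefore held 84.3%, 88.8%, 86.6% and 91.1% of the UMIs of the trio in cardiomyocyte-like nuclei and 22.0%, 26.4%, 22.3% and 27.7% in other nuclei. In vascular endothelial-like nuclei it held 15.0% ± 2.97, and there Slc25a25 was the main form, at 78.1 ± 18.2 CPM. Slc25a23 in other nuclei also lies within the range of the cardiomyocyte markers there, and the same limit holds for these shares. Slc25a23 overlaps Crb3 and Slc25a25 overlaps Naif1 on the opposite strand. Slc25a41, the fourth gene of the group, had 8 UMIs in cardiomyocyte-like and 3 in other nuclei.

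**Figure D2:**
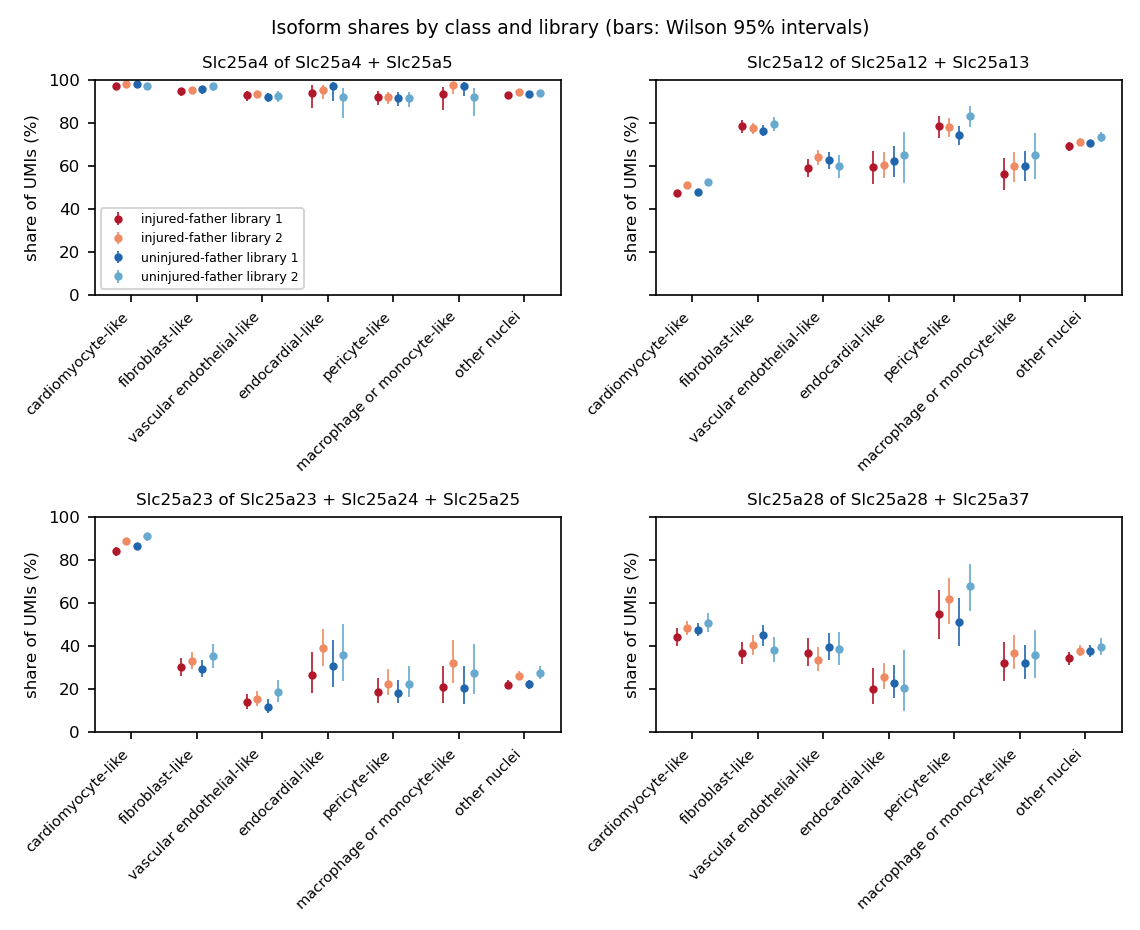
Share of UMIs (vertical axis, percent) held by 1 gene of a pair or trio in 6 classes and in other nuclei (horizontal axis), with 1 coloured point per library and its 95% Wilson interval. Slc25a23 holds 84.3% to 91.1% in cardiomyocyte-like nuclei and at most 39.0% in the other classes drawn, and Slc25a12 is lowest in cardiomyocyte-like nuclei.

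Carriers of fuels and cofactors made up most of the rest that were higher. Slc25a42, which carries coenzyme A, stood at 143, 131, 118 and 114 CPM in cardiomyocyte-like nuclei against 17.4, 16.5, 14.0 and 15.3 CPM, a ratio of 7.98. Slc25a20, the carnitine/acylcarnitine carrier, stood at 81.5, 64.5, 46.0 and 49.2 CPM against 13.4, 15.7, 11.0 and 14.2 CPM. Its ratio was 4.36, with 6.10 in injured-father library 1 and 3.47 to 4.17 in the other libraries. Slc25a26, the S-adenosylmethionine carrier, was 3.45-fold higher. It fell short of 2-fold in at least 1 library with plain CPM. Slc25a26 overlaps Lrig1 on the opposite strand.

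Several members with no settled transport role, or one known from other tissues, also stood out in cardiomyocyte-like nuclei. Slc25a34, an orphan carrier, had the highest ratio of all, 17.2 (14.5 to 20.2), at 76.4, 99.7, 94.7 and 65.0 CPM against 3.93, 6.55, 4.68 and 4.49 CPM. Slc25a47, known as a carrier of liver, had 3706 UMIs in cardiomyocyte-like nuclei and a ratio of 3.61 (119 ± 16.9 against 32.8 ± 2.13 CPM). With plain CPM its ratio was 2.30 and fell short of 2-fold in at least 1 library (1.96). Slc25a46, a protein of the outer membrane that takes part in mitochondrial fission and fusion, was 2.75-fold higher and 1.75-fold with plain CPM, where it no longer counted as higher. On plain CPM, other nuclei held Slc25a34 at 9.15%, Slc25a13 at 13%, Slc25a31 at 19.1%, Slc25a42 at 19.7% and Slc25a23 at 25.2% of the level in cardiomyocyte-like nuclei. All 5 lie within the 5.37% to 27.8% seen for the cardiomyocyte markers, so their summed level in other nuclei is not read as expression there.

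The 7 lower members were Slc25a45, Slc25a24, Slc25a43, Slc25a21, Slc25a14, Slc25a30 and Slc25a25. Slc25a45, an orphan, had 23 UMIs in 9455 cardiomyocyte-like nuclei and 502 in other nuclei, with a ratio of 0.0702. Slc25a43, another orphan, stood at 0.165 (0.121 to 0.313) and Slc25a21, the oxodicarboxylate carrier of lysine and tryptophan breakdown, at 0.238 (0.185 to 0.272). Slc25a14 and Slc25a30, relatives of the uncoupling proteins, stood at 0.321 and 0.396. Just inside the 2-fold rule were Slc25a46 with a ratio of at least 2.66 in each library and Slc25a30 with one of at most 0.490. Just outside it were Slc25a29, a carrier of basic amino acids (1.78 to 4.69), and Slc25a1, the citrate carrier (0.315 to 0.622). With plain CPM Slc25a1 counted as lower (0.206 to 0.396). Iron and glutathione carriers did not pass the 2-fold rule on either scale. Slc25a28, Slc25a37, Slc25a39 and Slc25a40 had ratios of 1.55, 1.01, 1.25 and 1.15. With plain CPM these were 0.990, 0.645, 0.797 and 0.735, so their direction depends on the scaling.

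Other classes had leading members of their own, picked here after their values were seen. The counts below use TMM-scaled levels and were not made over all genes or with plain CPM. Over 9 classes with at least 50 nuclei in every library, 23 members had their highest mean level in cardiomyocyte-like nuclei, and 7 of these were at least 2-fold above each other class in 4 of 4 libraries: Slc25a3, Slc25a12, Slc25a13, Slc25a23, Slc25a34, Slc25a42 and Slc25a47. Slc25a33, a pyrimidine nucleotide carrier, did the same in pericyte-like nuclei, at 93.8, 81.4, 117 and 109 CPM, followed by 40.1 ± 8.99 in cardiomyocyte-like nuclei and 4.27 to 18.8 CPM in the other 7 classes. Slc25a45 did so in macrophage- or monocyte-like nuclei, at 38.2, 36.8, 37.7 and 40.2 CPM, with vascular endothelial-like nuclei next at 10.9 ± 2.13 CPM. Of the 7 led by cardiomyocyte-like nuclei, Slc25a3 and Slc25a47 fell short of 2-fold against other nuclei with plain CPM (lowest ratios 1.87 and 1.96). Slc25a37, or mitoferrin-1, the iron carrier that red cell precursors depend on, was highest in B lymphocyte-like nuclei in 4 of 4 libraries (150 ± 30.8 CPM), next in macrophage- or monocyte-like (104 ± 12.7) and endocardial-like nuclei (88.7 ± 18.7), and lowest in pericyte-like nuclei (20.9 ± 2.30). Over the first 3 of these classes, the ranges of neighbours in that order overlap. Its paralog Slc25a28, mitoferrin-2, held 59.1% ± 7.47 of the pair's UMIs in pericyte-like, 47.9% ± 2.73 in cardiomyocyte-like and 22.4% ± 2.53 in endocardial-like nuclei. Slc25a21 was highest in fibroblast-like nuclei in 4 of 4 libraries, at 37.9, 44.8, 35.7 and 22.9 CPM. It spans 484839 bases and overlaps Pax9 on the opposite strand.

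**Figure D3:**
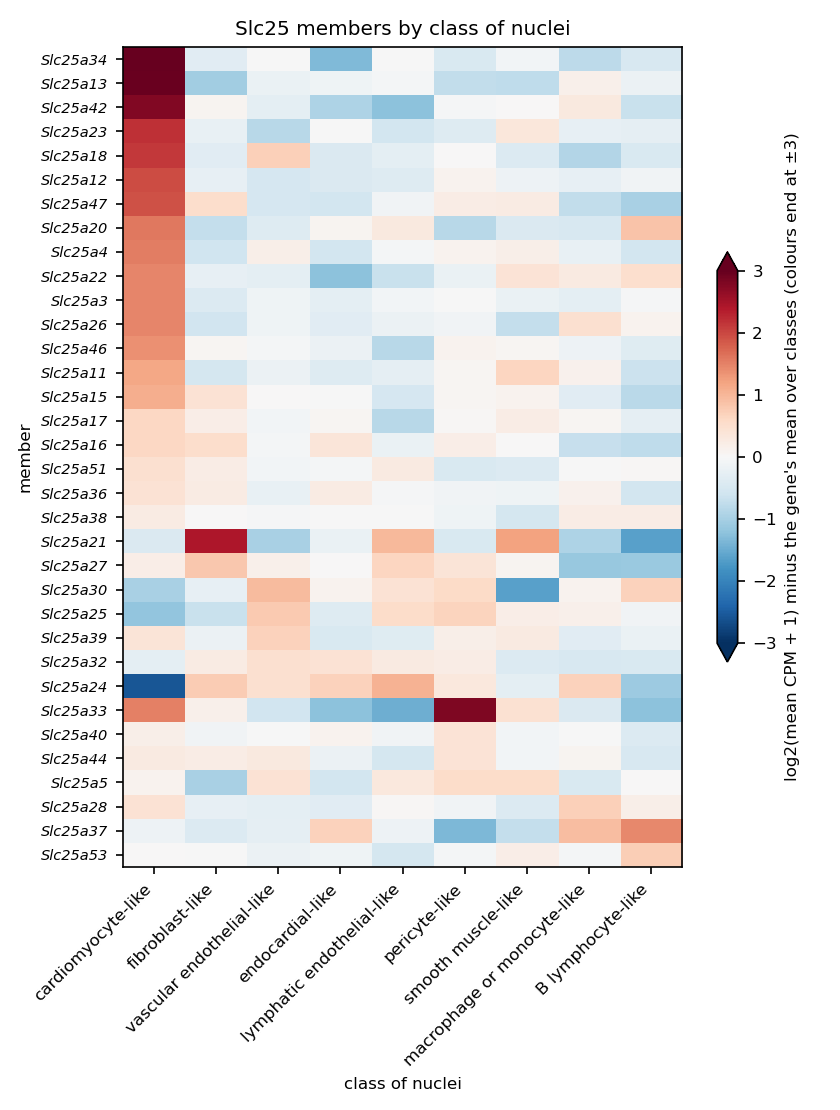
Mean level of the 34 members drawn, each with at least 500 UMIs over the 9 classes (rows) in each class (columns), as log2(mean CPM + 1) minus the member's own mean over the classes, red for higher and blue for lower, with colours ending at 3. The block of red in the first column is the set of members high in cardiomyocyte-like nuclei, and the dark cell of Slc25a33 in the pericyte-like column stands for 100 CPM against 40.1 in cardiomyocyte-like nuclei.

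Cardiomyocyte-like nuclei were themselves not uniform. One of their 3 clusters was led by atrial genes and made up 12.6% and 14.5% of cardiomyocyte-like nuclei in the injured-father libraries and 9.74% and 4.80% in the uninjured-father libraries. In it Slc25a18 stood at 0.234 and Slc25a34 at 0.255 of the level in the other 2 clusters (2.76 ± 0.915 against 11.5 ± 3.71, and 15.2 ± 5.30 against 57.7 ± 10.9), with 13 and 63 UMIs. Levels of these clusters are plain CPM, without the TMM scaling used above, and cannot be set beside the levels above. Slc25a13 was at 0.471 (0.405 to 0.525) Slc25a47 at 0.644 (0.596 to 0.708) and Slc25a12 at 0.850 (0.742 to 0.956), each lower in 4 of 4 libraries. Slc25a23, at 1.00, was higher in 2 libraries and lower in 2. Slc25a25 was 1.69-fold higher (1.55 to 1.87). These levels come from clusters and carry no test.

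Adipocyte-like nuclei carried another set. Here 2 libraries could be compared, those of injured fathers, and 42 members had at least 50 UMIs on either side. Of these, 12 members were at least 2-fold higher in both libraries (28.6%, beside 7.12% of all genes) and 4 were lower (9.52%, beside 21.8% of all genes). Slc25a42 stood at 436 and 446 CPM in adipocyte-like nuclei against 17.4 and 16.5 CPM in other nuclei, ratios of 25.0 and 26.9. Slc25a20 stood at 238 and 274 CPM against 13.4 and 15.7 CPM, ratios of 17.8 and 17.4. The carriers of coenzyme A and acylcarnitine were thus both higher in adipocyte-like than in cardiomyocyte-like nuclei of the 2 libraries. Slc25a51, the NAD+ carrier, stood at 411 and 268 CPM (ratios 9.84 and 6.03), and Slc25a44, a carrier of branched-chain amino acids that brown fat uses, at 45.7 and 40.5 CPM (4.73 and 3.83). Slc25a10, the dicarboxylate carrier, and Slc25a1, which exports citrate for fatty acid synthesis, had ratios of 10.1 and 7.05 but only 19 and 22 UMIs in adipocyte-like nuclei. Slc25a35, an orphan, had a ratio of 10.5 on 29 UMIs. Slc25a17, a carrier of peroxisomes, Slc25a22, Slc25a33 and Slc25a29 were also among the 12, the last on 5 UMIs.

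The 4 lower members were Slc25a12 (34.3 and 46.6 CPM against 109 and 123 CPM), Slc25a21, Slc25a24 and Slc25a27, an uncoupling protein relative. Slc25a4 and Slc25a13, high in cardiomyocyte-like nuclei, were not high here: Slc25a4 stood at 95.2 and 83.1 CPM against 115 and 145 CPM, and Slc25a13 at 11.4 and 40.5 CPM against 48.8 and 49.8 CPM. The cardiomyocyte markers stood in adipocyte-like nuclei at 3.03% to 19.95% of their level in cardiomyocyte-like nuclei on plain CPM. Slc25a13 (7.49%) and Slc25a12 (11.5%) lie within that range there, so their levels in adipocyte-like nuclei are not read as expression. Slc25a48, named outside the 50 UMI rule after its values were seen, had 20 UMIs in 287 adipocyte-like nuclei, 5 in other nuclei of the same libraries and 0 in cardiomyocyte-like nuclei. In adipocyte-like nuclei Slc25a48 stood at 32.4 and 6.08 CPM, so most of these UMIs came from injured-father library 1. Outside the Slc25 symbols the family holds the uncoupling proteins. Ucp1, which makes heat in brown fat, stood at 648 and 89.2 CPM in adipocyte-like nuclei, so the 2 libraries differed widely in it while Slc25a42 and Slc25a20 did not. Ucp3, known from muscle and brown fat, stood at 192 and 97.3 CPM there and at 45.7 and 44.1 CPM in cardiomyocyte-like nuclei of the same libraries.

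Without injured-father library 2, 12 of 37 members counted were higher (11.7% of all genes by the same rule) and 12 lower (32.1%). Without injured-father library 1, 10 of 38 were higher (9.84%) and 5 lower (28.7%). With the 16 and 7 nuclei of the uninjured-father libraries added, a choice made after seeing the data, 6 of 43 were higher (among them Slc25a1, Slc25a10, Slc25a20, Slc25a22 and Slc25a42), beside 2.23% of all genes. There 2 were lower (Slc25a12 and Slc25a24), beside 19.6% of all genes.

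**Figure D4:**
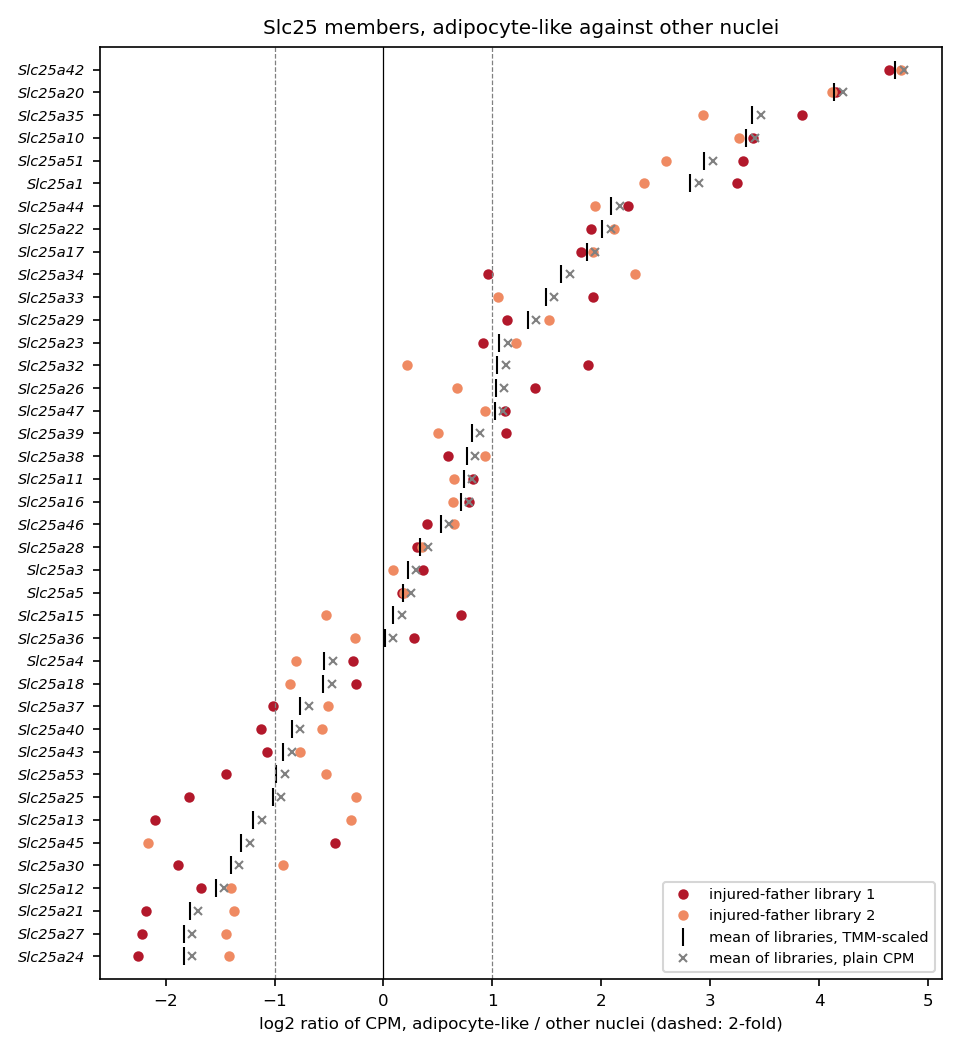
Log2 ratio of CPM in adipocyte-like to other nuclei (horizontal axis) for the members drawn, which had a UMI in every sum (vertical axis), with a red point for injured-father library 1, an orange point for injured-father library 2, a black bar at their mean and a grey cross for plain CPM. Slc25a42 and Slc25a20 are at the top with both points nearly on each other.

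Other genes of mitochondrial transport were read the same way from lists chosen with earlier results known. Of 9 regulators of mitochondrial gene expression, 6 were at least 2-fold higher in cardiomyocyte-like nuclei (15.6% of all genes) and 0 were lower (24.1%), among them Ppargc1a (ratio 14.8), Ppargc1b (14.4) and Esrrb (23.2). In adipocyte-like nuclei 5 of the 9 were higher (7.12% of all genes), Ppargc1b by 17.7-fold. Of 14 genes for the import of carriers, 4 were higher in cardiomyocyte-like nuclei (15.6% of all genes) and 1 was with plain CPM (9.03%). Of 19 other transport genes, 9 were higher (15.6% of all genes) and 2 lower (24.1%), with Mpc1 and Mpc2, the subunits of the pyruvate carrier, at 6.10 and 3.79. With plain CPM 5 of the 19 were higher (9.03% of all genes) and 4 lower (35%). Cpt2, which acts after Slc25a20 in fatty acid import, had a ratio of 1.60 in cardiomyocyte-like and 4.21 in adipocyte-like nuclei. Cpt1a, which acts before it, had ratios of 2.17 and 0.448, and neither passed the 2-fold rule in its class. Cpt1b, the form of muscle, counted as higher in cardiomyocyte-like nuclei on 164 UMIs against 11 and had 3 UMIs in adipocyte-like nuclei.

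The father groups were then compared within classes, on counts summed per library, by edgeR's quasi-likelihood test with Benjamini-Hochberg adjustment over all genes tested. No member passed an adjusted p of 0.05. The counts were 0 of 41 members tested in cardiomyocyte-like nuclei (0.00797% of all genes called), 0 of 43 in other nuclei (0.014%), 0 of 41 in fibroblast-like (0.00802%), 0 of 37 in vascular endothelial-like (0%), 0 of 25 in endocardial-like (0.0819%) and 0 of 15 in lymphatic endothelial-like nuclei (0%). They were 0 of 34 in pericyte-like (0.0693%), 0 of 8 in smooth muscle-like (0.0472%), 0 of 27 in macrophage- or monocyte-like (0%), 0 of 13 in B lymphocyte-like (0%) and 0 of 44 in all nuclei summed (0.101%). At an unadjusted p of 0.05, 1 member passed in cardiomyocyte-like nuclei (4.22% of all genes did), 2 in other nuclei (4.99%), 1 in fibroblast-like (2.98%), 1 in vascular endothelial-like (5.35%), 2 in endocardial-like (5.12%) and 0 in lymphatic endothelial-like nuclei (5.39%). There were 2 in pericyte-like (4.22%), 0 in smooth muscle-like (4.75%), 2 in macrophage- or monocyte-like (4.81%), 0 in B lymphocyte-like (2.99%) and 4 in all nuclei (6.99%). DESeq2 and limma-voom also called 0 members in each of these 11 fits. In cardiomyocyte-like nuclei the members' log2 fold changes ran from -0.42 to 0.61 with a median of -0.000193, beside -0.000566 over all genes, and 20 of 41 were above 0. Adipocyte-like nuclei were too few in the uninjured-father libraries to test.

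Values by father group below are CPM scaled within a class, injured-father libraries 1 and 2 first. Slc25a20 had the smallest p in cardiomyocyte-like nuclei, at 52.6 and 40.9 against 28.8 and 32.4 CPM (521 and 597 against 459 and 258 UMIs). Both injured-father libraries lie above both others, as 15.3% of all genes do. Its log2 fold change was 0.61 with a standard error of 0.17 (adjusted p = 0.757, edgeR). Without injured-father library 2 the change was 0.78, with 1 library standing for its group. That library, injured-father library 1, had the higher level of the 2 (52.6 against 40.9 CPM). In all nuclei Slc25a20 stood at 34.2 and 30.9 against 20.9 and 23.3 CPM, a log2 fold change of 0.56 (adjusted p = 0.362, edgeR). There nuclei of each class and the level per nucleus cannot be told apart, and the adipocyte-like nuclei, where Slc25a20 is high, were 174 and 113 against 16 and 7. Cardiomyocyte-like nuclei held 1835 of its 2836 UMIs and adipocyte-like nuclei 268. Other nuclei leave out both of these classes, and there the change was 0.23. The part of each class in the change in all nuclei was not tested.

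The next 2 members upward in cardiomyocyte-like nuclei were Slc25a18, at 9.29 and 15.5 against 8.84 and 9.18 CPM (log2 fold change 0.48, adjusted p = 1.00, edgeR), and Slc25a42, at 92.0 and 82.8 against 73.8 and 75.4 CPM (0.23, adjusted p = 1.00, edgeR). In both, the groups do not overlap. Downward were Slc25a33, at 19.2 and 25.5 against 24.4 and 34.1 CPM (-0.37), and Slc25a23, at 93.2 and 90.9 against 99.6 and 108 CPM (-0.17). Of 41 members, 5 had non-overlapping groups with injured-father libraries higher (15.3% of all genes) and 3 with them lower (15.3%). The 7 atrial genes listed had log2 fold changes above 0 in cardiomyocyte-like nuclei, with a median of 1.02, and 0 passed the adjusted threshold. Their part in the members' values was not tested. Ucp3 stood at 29.5 and 28.0 against 12.6 and 17.6 CPM (0.94, adjusted p = 0.418, edgeR).

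**Figure D5:**
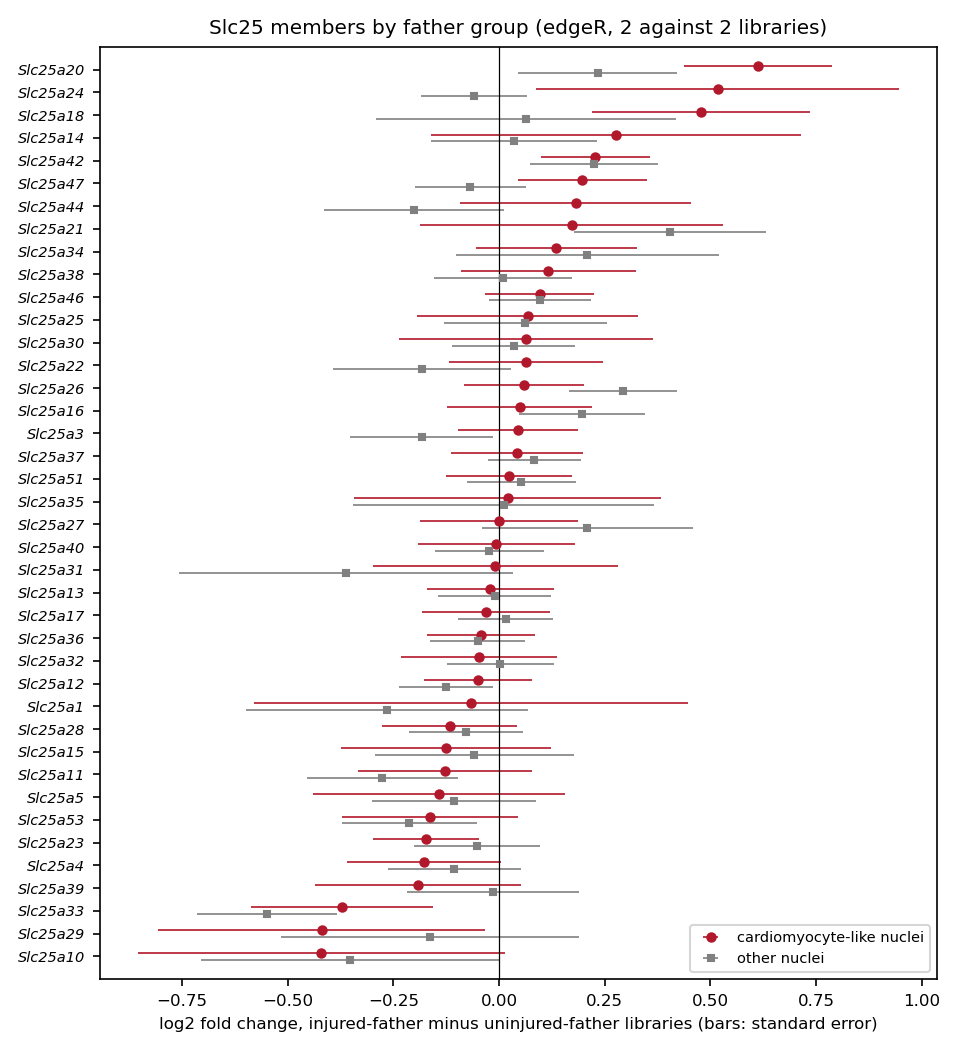
Log2 fold change of injured-father against uninjured-father libraries (horizontal axis, edgeR, bars for the standard error) for the 40 members drawn, in cardiomyocyte-like nuclei (red circles), with other nuclei as grey squares. Points lie on both sides of 0, from Slc25a20 at 0.61 to Slc25a10 at -0.42, and none passed the adjusted threshold.

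In the remaining classes the member of smallest p in each direction was as follows. In other nuclei Slc25a33 stood at 19.3 and 15.8 against 23.3 and 28.1 CPM (log2 fold change -0.55, adjusted p = 0.842, edgeR), and Slc25a26 at 40.4 and 42.2 against 35.9 and 31.3 CPM (0.29). In pericyte-like nuclei, where Slc25a33 is highest, it stood at 94.8 and 80.6 against 116 and 113 CPM (-0.39, adjusted p = 1.00, edgeR), with groups that do not overlap. Slc25a27 was upward there (0.38), as in lymphatic endothelial-like nuclei (0.77). In fibroblast-like nuclei Slc25a21 stood at 37.4 and 43.9 against 34.5 and 22.8 CPM (0.48), and Slc25a53, an orphan, had the smallest p downward (-0.37). In vascular endothelial-like nuclei Slc25a42 had a change of 0.49 and Slc25a40, a glutathione carrier, one of -0.43. In endocardial-like nuclei Slc25a30 stood at 13.2 and 7.01 against 23.7 and 28.0 CPM (-1.40, adjusted p = 0.707, edgeR) on 11, 10, 21 and 10 UMIs, and Slc25a26 had a change of 0.43. In macrophage- or monocyte-like nuclei Slc25a17 stood at 68.3 and 66.9 against 38.1 and 31.1 CPM (0.93, adjusted p = 0.871, edgeR), and Slc25a38, the glycine carrier that haem synthesis needs, had a change of -0.84. Lymphatic endothelial-like nuclei had Slc25a47 (-1.21, on 3, 10, 14 and 6 UMIs), smooth muscle-like nuclei Slc25a4 (0.11) and Slc25a12 (-0.37), and B lymphocyte-like nuclei Slc25a26 (0.73) and Slc25a12 (-0.58). None of these passed the adjusted threshold.

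Members whose groups do not overlap were counted in these classes as well. With injured-father libraries higher there were 4 of 43 in other nuclei (16.5% of all genes), 5 of 41 in fibroblast-like (14.6%), 5 of 37 in vascular endothelial-like (17.2%), 1 of 25 in endocardial-like (17%) and 1 of 15 in lymphatic endothelial-like nuclei (17.1%). There were also 5 of 34 in pericyte-like (15.8%), 0 of 8 in smooth muscle-like (17.4%), 3 of 27 in macrophage- or monocyte-like (16.7%), 2 of 13 in B lymphocyte-like (16.2%) and 7 of 44 in all nuclei (17.6%). With these libraries lower there were 7 in other nuclei (17.2%), 7 in fibroblast-like (14.7%), 10 in vascular endothelial-like (17.6%), 1 in endocardial-like (16.5%) and 3 in lymphatic endothelial-like nuclei (18%). The rest were 5 in pericyte-like (16.4%), 2 in smooth muscle-like (16.1%), 6 in macrophage- or monocyte-like (16.5%), 5 in B lymphocyte-like (15.8%) and 8 in all nuclei (17.7%).

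The father effect was also set against itself in cardiomyocyte-like and other nuclei through an interaction term. It was called for 0 of 43 members (0.0344% of all genes called, edgeR), with 0 at an unadjusted p of 0.05 and a smallest adjusted p of 0.959. Isoform shares in cardiomyocyte-like nuclei were 47.5% and 51.3% against 47.9% and 52.4% for Slc25a12, and 97.3% and 97.9% against 98.1% and 97.4% for Slc25a4. The smallest p that 2 libraries against 2 allow by exact permutation is 0.333. The shares of Slc25a4, Slc25a12, Slc25a23 and Slc25a28 in cardiomyocyte-like nuclei each gave 0.667 (two-sided exact permutation test), with overlapping groups. Of the other gene lists, carrier import, other membrane transport and regulators had 0 genes called by father group in cardiomyocyte-like nuclei (0 of 14, 0 of 18 and 0 of 9).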

How the data were processed

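Per the labels, hearts were snap frozen, nuclei were isolated and blood cells were excluded with a Ter119 antibody before droplet capture. The deposited values are UMI counts, whole and not normalized, that the authors made with Cell Ranger 6.0.1, as the file headers state. The submitters' processing notes also name Seurat 4.0. The sources used here do not give the genome build, the annotation or whether reads from introns were counted. Positions come from GENCODE M21 (GRCm38), which holds 21779 of the 21884 feature identifiers. Besides the members marked above, Slc25a2, Slc25a11, Slc25a18, Slc25a35, Slc25a46 and Slc25a53 overlap a gene on the opposite strand. Features and barcodes files hold names only.

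Nuclei were kept at 500 or more UMIs, 300 or more genes and under 5% mitochondrial UMIs. Doublets marked by Scrublet in each library (scanpy 1.11.5; 9.62% to 14.9%) were removed. Nuclei were clustered by Leiden (leidenalg 0.10.2, resolution 1.0, 20 neighbours, 30 principal components of 3000 variable genes without the members) and classes were named from 18 marker lists. A cluster was left unnamed where a second list reached over 0.5 of the best list's score, a limit set after the clusters were seen. Counts were summed per class and library and tested with edgeR 4.0.16 in R 4.3.3 (TMM, filterByExpr minimum count 10, quasi-likelihood F test, two-sided, no replicate block) in each class with at least 50 nuclei in every library. Standard errors were derived from the F statistic. On simulated counts with known changes, the test called 55.6% of 2-fold and 98.0% of 4-fold changes in cardiomyocyte-like nuclei, with 7 false calls. In pericyte-like nuclei it called 63.3% and 96.9%, with 12 false calls. Many 2-fold changes would thus be missed, and a count of 0 members called does not show that no member changed.

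Members, gene lists and the rule for naming genes were chosen with earlier results of these data known. By father group the rule names members past an adjusted p of 0.05 and otherwise those of smallest p (3 per direction in cardiomyocyte-like nuclei, 1 elsewhere). By class it names up to 10 members per direction in cardiomyocyte-like and up to 6 in adipocyte-like nuclei, then isoform pairs and the lists. The values of 1 member are not reported here, though counts and fits hold it. Alternatives tried were RLE scaling, DESeq2 1.42.0, limma-voom (limma 3.58.1), no count filter, the replicate block, leaving out each library, kept doublets, a stricter nucleus filter (1000 UMIs, under 1% mitochondrial), Leiden resolution 2.0 and members allowed among the variable genes. Binomial intervals are 95% Wilson intervals and cover counting error only.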

Additional observations from a re-analysis of the deposited data

How the results depend on the processing

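Members called by father group stayed at 0 under the alternatives run in each class except as follows. Not run were smooth muscle-like nuclei under the stricter nucleus filter, and all nuclei at Leiden resolution 2.0 or with members among the variable genes. With no filter on low counts, 1 member (Slc25a21) was called in lymphatic endothelial-like nuclei, beside 76 of 14574 genes. Calls also appeared in fits without 1 library, which leave 1 library standing for its group. Without injured-father library 2 they were Slc25a20 in cardiomyocyte-like nuclei, and Slc25a20 and Slc25a48 in all nuclei. Without injured-father library 1 they were Slc25a27 in other and in fibroblast-like nuclei. In each of these fits more of all genes were called than with all 4 libraries. The calls are not read as results about the members. Slc25a48 held 21 of its 29 UMIs in adipocyte-like nuclei, which were few in the uninjured-father libraries. With the replicate block, 0 members were called in each fit. Of all genes, it called 161 of 14242 in other nuclei (2 without it) and 210 of 14891 in all nuclei (15). In cardiomyocyte-like nuclei it called 10 of 12544 (1 without it), and in pericyte-like nuclei 4 of 10099 (7). The smallest adjusted p of a member in all nuclei was 0.0597 with the block and 0.362 without it (edgeR). Same-numbered libraries correlated by -0.00415 to 0.118 in their deviations. With 2 pairs this cannot decide whether same-numbered hearts are related. No source used here says that they are. The interaction stayed at 0 without any 1 library.

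Members higher in cardiomyocyte-like nuclei fell to 10 with plain CPM. Members lower there fell from 7 to 5 with doublets kept and to 6 with the stricter nucleus filter. In adipocyte-like nuclei the stricter filter left 8 of 39 members counted higher and 4 lower. Doublets kept gave 11 of 43 higher and 6 lower there. Shares of all genes were not counted for these 2 settings or at 1.5-fold. In adipocyte-like nuclei 19 were higher at 1.5-fold, 6 over all 4 libraries, and 10 to 12 without 1 library. There 5 to 12 were lower without 1 library and 2 over all 4 libraries. Isoform shares moved past their spread with doublets kept, for Slc25a4 in adipocyte-like (91.4%) and other nuclei (94.2%), Slc25a12 in other nuclei (65.9%), Slc25a28 in adipocyte-like nuclei (50.5%, and 51.6% with the stricter filter) and Slc25a23 in cardiomyocyte-like (84.1%) and other nuclei (28.3%). Slc25a4 in smooth muscle-like nuclei changed sign (-0.33 to 0.50 without 1 library, the lowest without uninjured-father library 1), and was -0.092 at Leiden resolution 2.0. Of 326 values for members named by father group, 322 kept their direction and their side of the threshold. The cause was not tested, beyond the fewer libraries or other scale that each alternative sets. With 310 adipocyte-like nuclei, members under about 50 UMIs there are counted imprecisely.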
